A study of Mus musculus with 28 samples.

Results

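Genes that mark the club and the ciliated cells of the airway epithelium were followed in the lungs of mice that expressed human APOBEC3B (A3B). The members are 3 club cell genes (Scgb1a1, Scgb3a1 and Scgb3a2) and 7 ciliated cell genes (Foxj1, Dnah5, Dnah9, Dnaic1, Tppp3, Ccdc39 and Rsph1), chosen by name as airway markers with earlier results of these data known, and they are 10 of 24845 genes in the table used. A3B mice carried TetO-A3B-tGFP, a human A3B gene fused to turboGFP at the ColA1 locus, and CAGs-rtTA3, a constitutive driver, so that doxycycline induced A3B in many tissues and not in airway cells alone. The study describes the animals as adult when doxycycline was started, and the labels give food with 625 ppm doxycycline for all of them. A3B lungs came from mice 69, 70 and 74, labelled with 10 days of treatment. Control lungs came from mouse 87, which carried the driver without A3B, and from mice 88 and 91, which carried A3B without the driver, all labelled with 15 days. The mouse table of the study, matched by number and genotype, lists mice 88 and 91, and liver donors 11 and 92, without doxycycline and mouse 87 with a shorter treatment, which goes against the labels, so genotype, length of treatment and doxycycline itself cannot be told apart from A3B in the lung comparison. Livers served as the background in which airway genes should be near 0. A3B livers came from mice 23 and 28 (14 days) and 70 (10 days), and control livers from mice 11, 91 and 92 (15 days), of which mouse 11 is labelled with both transgenes. Mice 70 and 91 gave both tissues, each sample is 1 animal, and p-values measure the spread between animals.

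Club cells are the secretory cells of the small airways of the mouse, and they release secretoglobins, small proteins of the airway lining fluid. Ciliated cells carry motile cilia, whose beating is driven by dynein arms fixed along a ring of microtubule doublets and is coordinated by radial spokes. Foxj1 is the transcription factor that switches on the motile cilium programme together with RFX factors, which bind promoter elements called X boxes. Both cell types line the conducting airways and are a small part of the whole lung, and neither is found in the liver parenchyma.

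The table held TPM per gene, a share of the reads scaled by gene length, which the authors computed from read counts. Whole reads could be recovered from the steps of the values for 18349 genes, and they summed to between 39513769 and 54211224 reads per lung and between 22454330 and 41779652 reads per liver. The transgene lay between 0.435 and 0.526 TPM in control lungs and between 90.6 and 281 TPM in A3B lungs. The length by which each gene had been divided was recovered with its reads, and for 89.7% of the recovered genes in RefSeq it differed from the RefSeq span of that gene. For 6 of the 10 members it equalled the RefSeq span of another gene, and for 4 (Dnah9, Dnaic1, Tppp3 and Rsph1) that of no RefSeq gene. The divisor of Scgb3a1, for example, was 3099 bp, which is the span of Scgb3a2 and of 3 other genes, whereas its own span is 1524 bp. Ratios of TPM of 1 gene between samples do not depend on its own divisor, but the divisors of all genes enter the scaling of each sample. On log2(TPM + 1), the scale of the tests, the divisor also sets the weight of the added 1. TPM of different genes cannot be compared, and levels between genes are therefore given as exon RPKM. That is recovered reads per kb of exon and per 1000000 recovered reads. On that scale the median of all genes is lower by 0.159 (log2) in A3B than in control lungs, so groups are compared on TPM or, for sums over several genes, on exon RPKM after median-of-ratios scaling of the lungs, where the median differs by -0.0034. Whether reads in introns were counted is not given in the sources used here.

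A sequence that the choice of members did not use was more frequent in the promoters of the cilium genes than in those of all genes. RFX factors recognise X boxes, and the core GTTGCC was searched on both strands in RefSeq promoters of GRCm38.p6, each of 300 bases from 250 before to 50 after a gene start. GTTGCC was present in 36 of 65 genes of the cilium lists and the ciliated members that have a promoter entry (55.4%), and in 14.1% of all 27025 genes with one. The variant GTTGCTA, which does not overlap it, was present in 18 of the 65 genes and in 4.28% of all genes. Some genes held both, and 42 of the 65 held either, against 17.4% of all genes. Of the 10 members 5 have an entry, none of these holds GTTGCC, and Dnah5 and Ccdc39 hold GTTGCTA. The windows of 80 bases printed here are those of the 5 list genes with GTTGCC that fell most in A3B lungs, of Hydin, a central pair gene with GTTGCC that did not pass the test, and of both members with GTTGCTA. They run 5′ to 3′ on the strand of the gene, and the capitals mark the matches on either strand.
Mcidas, chr13:112993636-112993715 (+): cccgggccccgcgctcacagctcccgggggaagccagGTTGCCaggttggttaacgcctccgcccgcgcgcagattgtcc
Lrrc23, chr6:124779724-124779803 (-): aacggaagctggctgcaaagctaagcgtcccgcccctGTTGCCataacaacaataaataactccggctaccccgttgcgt
Deup1, chr9:15627883-15627962 (-): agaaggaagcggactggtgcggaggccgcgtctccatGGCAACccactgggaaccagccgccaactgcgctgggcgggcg
Sntn, chr14:13670773-13670852 (+): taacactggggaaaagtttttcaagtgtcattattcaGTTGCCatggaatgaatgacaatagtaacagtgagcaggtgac
Pifo, chr3:106001467-106001546 (-): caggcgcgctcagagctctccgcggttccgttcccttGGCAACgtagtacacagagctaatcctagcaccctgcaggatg
Hydin, chr8:110266927-110267006 (+): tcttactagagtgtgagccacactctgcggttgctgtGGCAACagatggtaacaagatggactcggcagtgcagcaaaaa
Dnah5, chr15:28203621-28203700 (+): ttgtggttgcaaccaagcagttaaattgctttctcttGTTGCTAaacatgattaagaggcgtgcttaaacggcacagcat
Ccdc39, chr3:33844261-33844340 (-): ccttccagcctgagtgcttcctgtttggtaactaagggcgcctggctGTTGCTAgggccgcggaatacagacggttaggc
A match shows that these letters are in the window and not that a factor binds there. Among genes called lower in A3B lungs as a whole, 15.2% held GTTGCC, close to the 14.8% of all genes tested in lung. Within the cilium lists and ciliated members, 11 of the 14 genes called lower that have an entry held GTTGCC, as did 17 of the 34 tested and not called, and this difference was not tested.

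In the lungs, the members covered a wide range of levels. In control lungs Scgb1a1 (ENSMUSG00000024653.2, chromosome 19, 9083636 to 9087958, minus strand), the main secretoglobin of club cells, stood at 3087 ± 168 exon RPKM (SD, n = 3). Scgb3a2 followed at 578 ± 30.9, Scgb3a1 at 330 ± 39.5 and Tppp3, a tubulin-binding protein gene, at 243 ± 7.02 on this scale. The transcription factor gene Foxj1 (36.2 ± 8.64) and the radial spoke gene Rsph1 (27.8 ± 3.33) came next, and their ranges over the 3 control lungs overlapped. The dynein arm intermediate chain gene Dnaic1 stood at 6.39 ± 0.697. The lowest were Ccdc39 (2.33 ± 0.26), which encodes part of the ruler that sets the spacing of the dynein arms, and the outer arm heavy chain genes Dnah5 (1.74 ± 0.534) and Dnah9 (1.57 ± 0.387). The range of Dnah5 overlapped those of both others, whereas Ccdc39 lay above Dnah9 in all 3 control lungs. The order was the same in A3B lungs by group mean.

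**Figure D1:**
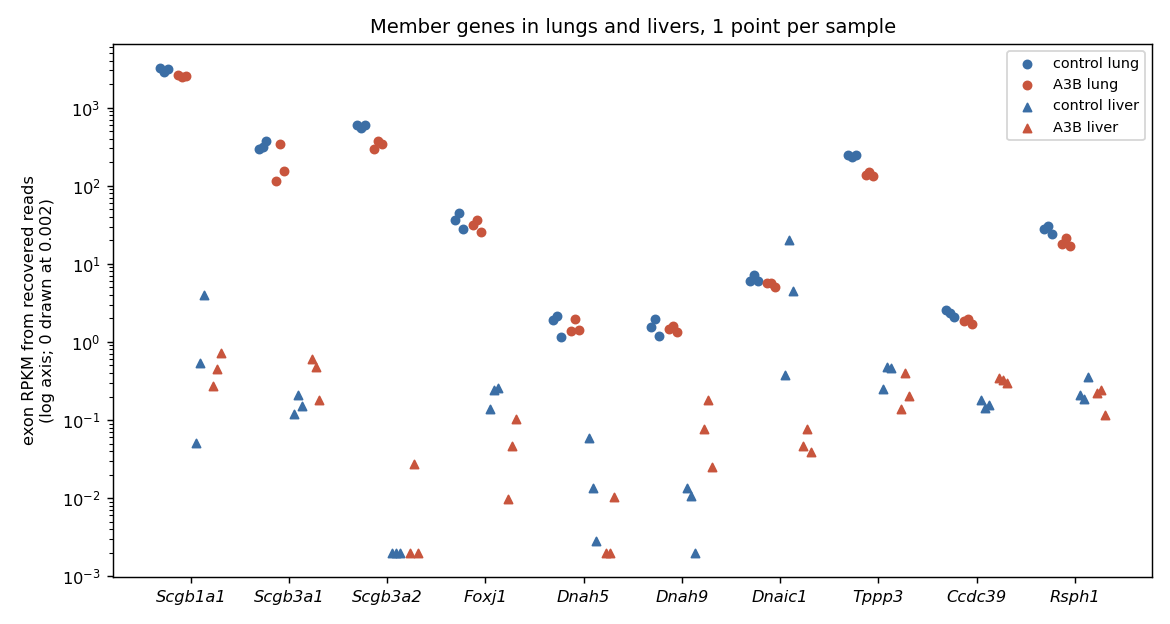
Exon RPKM (recovered reads per kb of exon and per 1000000 recovered reads, log axis) for the 10 member genes, 1 point per sample, circles for lungs and triangles for livers, blue for control and red for A3B. All members except Dnaic1 lie lower in every liver than in every lung, from Scgb1a1 at 3087 down to Dnah9 at 1.57 in control lungs.

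The livers gave the background for these levels. The members were chosen as airway genes, and the 8 that passed the filter did so through their lung levels, so that their higher level in control lungs than in control livers is a description and no test of the members. All 8 were higher by limma on log2(TPM + 1) (Benjamini-Hochberg adjusted p under 0.05), where 62.5% of all 13258 genes tested were. They were also higher with median-of-ratios size factors and with quantile normalization, where only 34.7% and 35.1% of all genes were. Scgb1a1, for example, differed by 11.49 on the log2(TPM + 1) scale with a standard error of 0.77. On recovered reads, where all 10 members could be fitted, 9 were higher in control lungs by voom, where 38.4% of all genes were. Dnaic1 was not called (log2 fold change 0.24, standard error 1.44, adjusted p = 0.893, voom). Scgb3a2 had 0 reads in 5 livers and 1 read in A3B liver 28. Control liver 92 stood apart for Scgb1a1, with 43 reads where the other 5 livers had between 1 and 13.

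Dnaic1 went against this pattern in livers. It had 1314 reads in control liver 91, 284 in control liver 92 and 44 in control liver 11, and between 4 and 9 reads in A3B livers. Control liver 91, at 1.32 TPM, lay above all 6 lungs. Enho, a gene on the opposite strand whose annotated end overlaps Dnaic1 by 15 bases, showed the same order of control livers, with 168 TPM in liver 91, 118 in liver 92 and 24.9 in liver 11, against 1.19 to 4.93 TPM in A3B livers. In lungs Enho was at 17.9, 19.8 and 21.6 TPM in controls and at 53.8, 34.6 and 33.9 TPM in A3B lungs, whereas the Dnaic1 groups overlapped there. The libraries were made with a stranded kit, but whether strand was used in counting is not given in the sources used here, and the part of Enho in the Dnaic1 reads was not tested. Ccdc39 also overlaps a gene of the opposite strand, Ttc14, by 2499 bases. Its reads in livers were 56, 25 and 26 in controls 11, 91 and 92 and 100, 101 and 83 in A3B livers 23, 28 and 70. Ttc14 was at 11.2, 4.804 and 3.618 TPM in these controls and at 9.83, 22.1 and 14.8 TPM in these A3B livers. In lungs Ttc14 was at 37.5, 29.4 and 37.7 TPM in controls and at 16.2, 18.2 and 28.4 TPM in A3B mice, below every control. Its part in the Ccdc39 reads of either tissue was not tested. In all, 2 of the 10 members (Foxj1 and Dnaic1) had every A3B liver below every control liver in TPM, which 7.98% of all genes above 0 in liver showed, and 2 (Dnah9 and Ccdc39) had every A3B liver above, which 23.5% showed. All 7 members with enough reads for voom in liver missed its threshold (smallest adjusted p = 0.126, for Foxj1).

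In the lung comparison, 2 of the 8 members tested were lower in A3B lungs and none was higher, against 20.8% lower and 16.1% higher among all 13651 genes tested. The 2 were the club gene Scgb3a2 and the ciliated gene Tppp3, at 0.616 and 0.612 of the control mean. After an adjustment for exon length, added after seeing the data, 1 of them (Tppp3) was still called, where 14.1% of all genes were lower. All 8 members had a negative fold change, where 55.0% of all genes tested did and their median was -0.06. The count was 7 of 8 with median-of-ratios size factors or quantile normalization, where Dnah5 turned, 6 of 8 after adjustment for exon length, 8 of 10 by voom on recovered reads, and 6 to 8 when 1 lung was left out. Of the 8, 4 had all 3 A3B values below all 3 control values (Scgb1a1, Scgb3a2, Tppp3 and Rsph1), which 30.6% of all genes tested showed. None of the 8 had all A3B values above all control values, against 23.3% of all genes. Fewer airway cells and less RNA of these genes per cell cannot be told apart in whole lung.

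**Figure D2:**
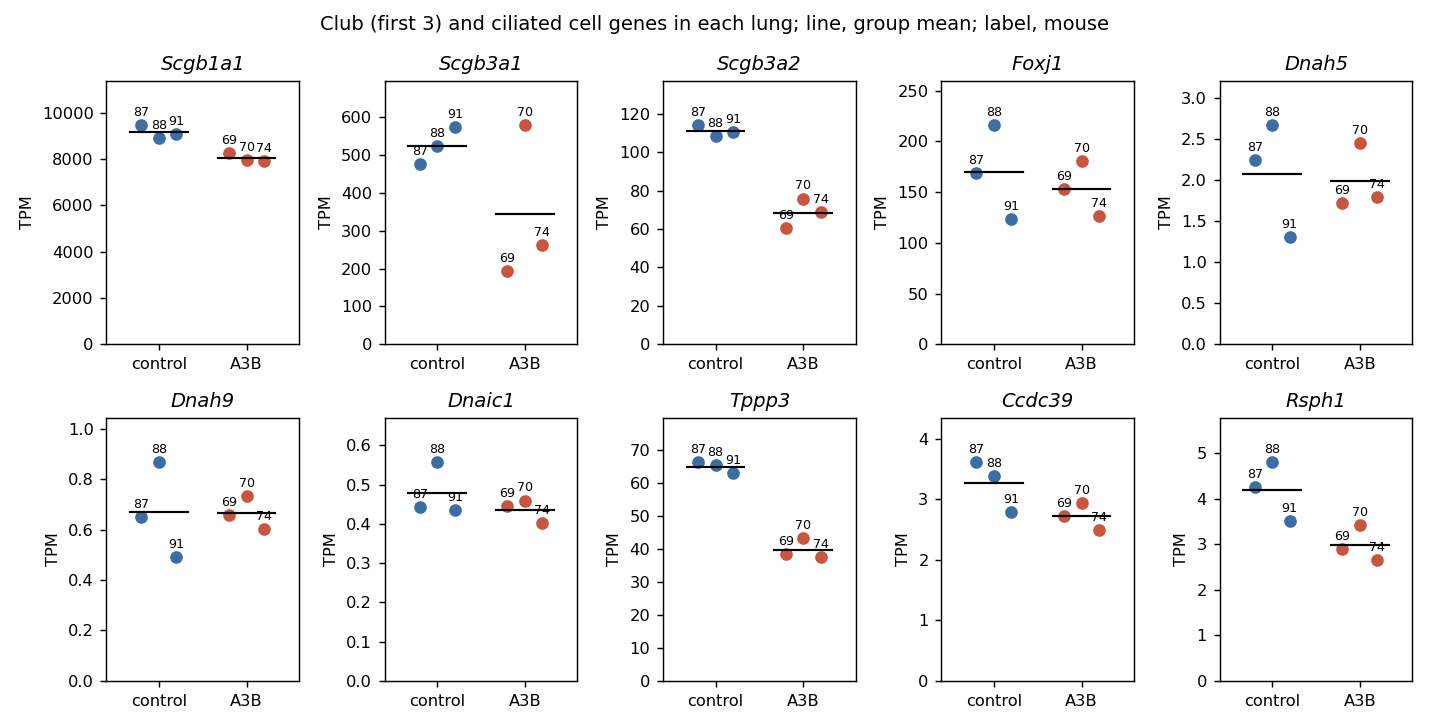
TPM of the 10 member genes in each lung (vertical axes start at 0), blue for the 3 control and red for the 3 A3B lungs, with mouse numbers and the group mean as a line. The groups are apart for Scgb1a1, Scgb3a2, Tppp3 and Rsph1, and A3B lung 70 lies above all controls for Scgb3a1.

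Scgb3a2 (chromosome 18, 43764289 to 43767399, plus strand) is a secretoglobin of club cells and early airway epithelium. It stood at 114, 108 and 110 TPM in control lungs 87, 88 and 91 and at 60.3, 75.8 and 68.9 TPM in A3B lungs 69, 70 and 74. The A3B lungs were all lower, and the gap between the groups was wider than the spread inside either. The log2 fold change was -0.70 (standard error 0.11, adjusted p = 0.00579, limma), and with the adjustment for exon length it was -0.24 and no longer called (adjusted p = 0.128, limma).

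Scgb1a1 was at 9486, 8935 and 9088 TPM in control lungs and at 8286, 7951 and 7941 TPM in A3B lungs. The groups did not overlap, but the ratio of the A3B to the control mean, 0.879, did not pass the test (log2 fold change -0.19, standard error 0.09, adjusted p = 0.143, limma). The table was made from alignments with duplicates removed, and what that did to an abundant gene with 476 bp of exon was not tested.

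Scgb3a1 (chromosome 11, 49663610 to 49665118, plus strand), a secretoglobin of the larger airways, was at 476, 523 and 575 TPM in control lungs and at 195, 580 and 261 TPM in A3B lungs 69, 70 and 74. A3B lung 70 lay above every control, whereas A3B lungs 69 and 74 lay below every control. The log2 fold change was -0.76 with a standard error of 0.39 and did not pass the test (adjusted p = 0.176, limma), and without A3B lung 70 it was -1.21 and passed (adjusted p = 0.0143, limma). That lung stood apart for other genes of the large airways. The 5 basal cell markers, none of them at 0 in any lung, summed to 9.78 scaled exon RPKM in A3B lung 70, to 2.45 and 0.737 in A3B lungs 69 and 74 and to between 2.07 and 3.18 in control lungs. The 5 cartilage markers with recovered reads, of which 1 was at 0 in control lung 91, summed to 3.04 scaled exon RPKM there, to 0.464 and 0.325 in A3B lungs 69 and 74 and to between 0.385 and 0.438 in controls. Bpifa1, a secretory gene of the upper airways, was at 730 TPM in this lung and between 87 and 246 TPM in the other 5. The part of the sampled airway in the Scgb3a1 level was not tested.

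Among the ciliated members, Tppp3 (ENSMUSG00000014846.12, chromosome 8, 105467493 to 105471526, minus strand) was at 66.5, 65.4 and 62.9 TPM in control lungs 87, 88 and 91. It was at 38.6, 43.2 and 37.4 TPM in A3B lungs 69, 70 and 74. Each group varied by little, and no A3B lung came near a control. The log2 fold change was -0.70 (standard error 0.09, adjusted p = 0.00427, limma).

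Rsph1 (chromosome 17, 31255019 to 31277383, minus strand), which encodes a radial spoke head protein, was at 4.26, 4.81 and 3.51 TPM in control lungs and at 2.89, 3.42 and 2.66 TPM in A3B lungs. The groups were apart by the small step between control 91 and A3B lung 70, and the log2 fold change of -0.38 (standard error 0.13) missed the threshold (adjusted p = 0.0636, limma). Without control lung 91 it was -0.48 and just passed, at an adjusted p of 0.0499 by limma.

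Foxj1 (chromosome 11, 116330704 to 116335399, minus strand), the master regulator of motile cilia, was at 169, 216 and 123 TPM in control lungs and at 153, 181 and 127 TPM in A3B lungs. All 3 A3B values fell inside the control range, and the log2 fold change was -0.12 with a standard error of 0.23 (adjusted p = 0.703, limma). Its sign turned without control lung 88, at 0.07, and without A3B lung 74, at 0.01.

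Dnah5 was at 2.24, 2.67 and 1.30 TPM in control lungs and at 1.71, 2.45 and 1.79 TPM in A3B lungs. Again the A3B values lay inside the control range (log2 fold change -0.02, standard error 0.20, adjusted p = 0.94, limma), and the sign turned under several settings. Ccdc39 was at 3.62, 3.39 and 2.80 TPM in control lungs and at 2.72, 2.94 and 2.49 TPM in A3B lungs, with overlapping groups (log2 fold change -0.20, standard error 0.11, adjusted p = 0.211, limma).

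Dnah9 and Dnaic1 lay under the filter of a mean of 1 TPM, which their divisors set, and entered no test on TPM in the main fit. With no filter all 10 members were tested. Scgb3a2 and Tppp3 remained the 2 called lower there, where 14.3% of all genes were. Dnah9 was at 0.651, 0.87 and 0.491 TPM in control lungs and at 0.659, 0.731 and 0.601 TPM in A3B lungs. Dnaic1 was at 0.444, 0.559 and 0.435 TPM in control lungs and at 0.446, 0.46 and 0.401 TPM in A3B lungs. Both groups overlapped. Between 663 and 1560 reads were recovered per lung for these genes, and voom on the recovered reads gave log2 fold changes of 0.08 (standard error 0.19, adjusted p = 0.781) for Dnah9 and -0.07 (standard error 0.14, adjusted p = 0.736) for Dnaic1.

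The ciliated members varied together between mice of 1 group. Control lung 91 was the lowest control for 7 of the 7, and control lung 88 the highest for 5. A3B lung 70 was the highest A3B lung for 7 of the 7, and A3B lung 74 the lowest for 6. A3B lung 70, also the highest A3B lung for Scgb3a1, had the most transgene, at 281 TPM against 90.6 and 115 TPM in A3B lungs 69 and 74. Control lung 91 was the lowest control for some other marker sums too, on the scale of exon RPKM after median-of-ratios scaling. It stood at 1336 against 1444 and 1537 for alveolar type I cells, at 264 against 455 and 566 for macrophages, at 51.2 against 96.6 and 117 for mesothelial cells and at 353 against 425 and 437 for general epithelial markers. For some others it was the highest control, at 149 against 31.1 and 79.7 for B cells, 35.5 against 13.2 and 17.2 for T cells and 331 against 220 and 229 for heart muscle. The part of these differences in the airway values was not tested. The Foxj1 level of control lung 88 was 216 TPM against 123 TPM in control lung 91, a wider step than that between the group means.

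The size of the change followed exon length across the whole table, and this bears on every member. Genes were split at the quartiles of their exon length (union of GENCODE M21 exons). The median log2 fold change was -0.30 for the quartile with exons of up to 2588 bp and 0.16 for the quartile from 6604 bp, and 35.7% and 7.69% of these genes were called lower. Both called members are in the shortest quartile, at 880 bp for Scgb3a2 and 1848 bp for Tppp3, but so are Scgb1a1 (476 bp), Scgb3a1 (598 bp) and Rsph1 (1372 bp), which were not called. Dnah5 has 15637 bp of exon. When the trend of each lung against exon length was taken out, an alternative chosen after seeing the data, Tppp3 remained lower (log2 fold change -0.39, adjusted p = 0.0203, limma). Scgb3a2 then lost its call at -0.24 (adjusted p = 0.128, limma), Rsph1 was at 0.00 (adjusted p = 0.998, limma) and Scgb1a1 turned to 0.33 (adjusted p = 0.0798, limma). The cause of the length trend was not tested.

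**Figure D3:**
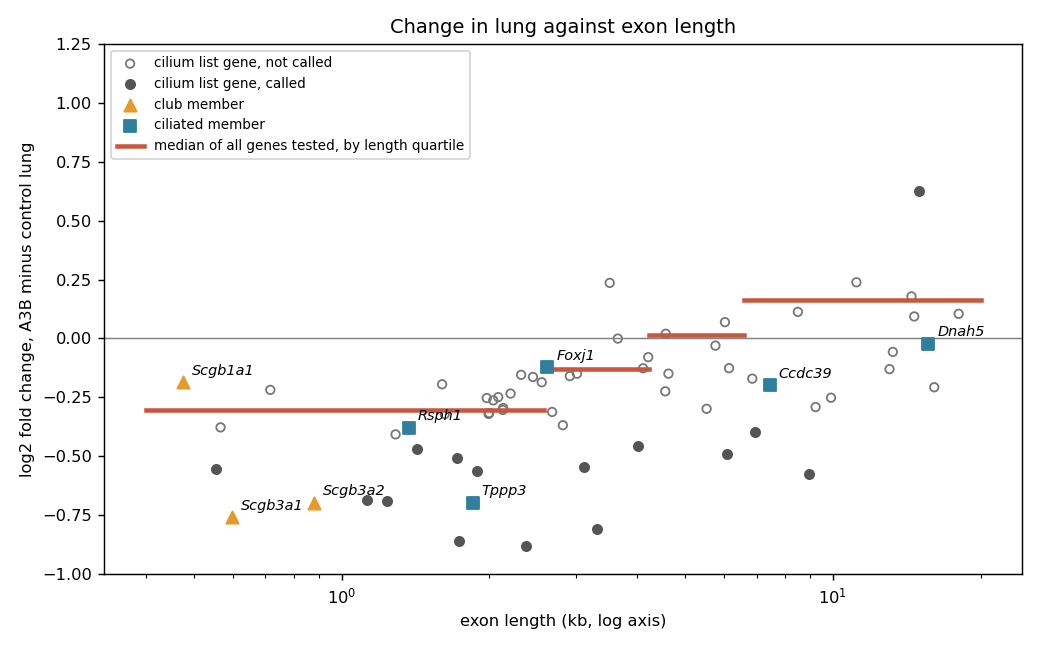
Log2 fold change (A3B minus control lung, log2(TPM + 1)) against exon length in kb (log axis) for the members (triangles, club; squares, ciliated) and the cilium list genes (circles, filled where called). Red bars give the median of all genes tested in each length quartile, from -0.30 in the shortest to 0.16 in the longest, and Tppp3 lies below the bar of its quartile by more than Rsph1 does.

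**Figure D4:**
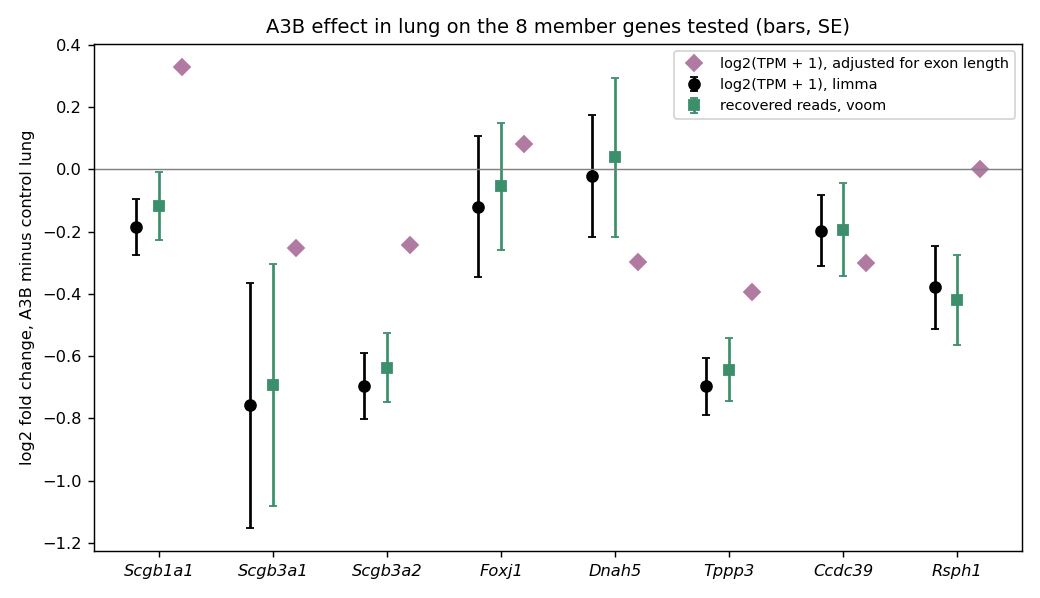
Log2 fold change in lung (A3B minus control) of the 8 members tested, from limma on log2(TPM + 1) (circles) and voom on recovered reads (squares), with standard errors, and from limma after adjustment for exon length (diamonds, no error drawn). Tppp3 stays below 0 in all 3, whereas Scgb1a1 moves from -0.19 to 0.33.

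The wider motile cilium programme was read from 6 lists that hold 72 genes beside the members. Of these, 57 were tested in lung, 14 were lower and 1 was higher, and 48 had a negative fold change. The 14 of 57 lie near the 20.8% lower among all genes tested. Their median log2 fold change was -0.25 against -0.06 for all genes tested. After the adjustment for exon length 10 were lower, where 14.1% of all genes were, none was higher and the median was -0.08. Without A3B lung 69, and with no such adjustment, 9 of 58 were lower, where 11.3% of all genes were.

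Among 10 regulators of ciliogenesis tested, 3 were lower and none was higher, where 20.8% of all genes tested were lower. Mcidas, which starts multiciliogenesis, was at 2.92, 4.03 and 2.89 TPM in control lungs and at 1.30, 1.20 and 1.44 TPM in A3B lungs (log2 fold change -0.88, standard error 0.13, adjusted p = 0.00568, limma). Deup1, which builds the deuterosomes from which multiple centrioles grow, had a log2 fold change of -0.81 (adjusted p = 0.0121, limma), and Myb, a regulator of that step, one of -0.58 (adjusted p = 0.0164, limma). With so few genes, 3 of 10 is not far from the share over all genes.

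Of the 7 genes of the outer dynein arm and its docking complex tested, 3 were lower, where 20.8% of all genes were. The count was 0 without A3B lung 70, where 12.5% of all genes were lower, and 1 without A3B lung 69, where 11.3% were. It was 2 with median-of-ratios scaling, quantile normalization or the adjustment for exon length, against 16.7%, 18.9% and 14.1% of all genes. The 3 were the docking gene Ccdc114 (log2 fold change -0.49, adjusted p = 0.0174, limma), Ccdc103 (-0.56, adjusted p = 0.0178) and the light chain gene Dnal1 (-0.40, adjusted p = 0.0417). In the list of the inner arm, the ruler and the nexin link, 1 of 10 was lower, also against 20.8% of all genes, the nexin-dynein regulatory gene Gas8 (log2 fold change -0.46, adjusted p = 0.0129, limma). The heavy chain gene Dnah2 of the same list was higher, at 9.14, 6.98 and 7.97 TPM in A3B lungs against 5.53, 4.24 and 4.78 TPM in controls (log2 fold change 0.63, adjusted p = 0.0136, limma). Dnah2 has 14968 bp of exon, which puts it in the longest quartile, where 29.8% of all genes were called higher, and after the adjustment for exon length no gene of this list was higher and 2 were lower. Of 12 radial spoke and central pair genes 1 was lower, a smaller share than the 20.8% of all genes, Rsph3b at -0.54 (adjusted p = 0.0441, limma). None of this list was called with median-of-ratios scaling, with no filter, by voom (Rsph3b adjusted p = 0.0604) or without control lung 87, control lung 88, A3B lung 69 or A3B lung 74. After the adjustment for exon length 2 of the 12 were lower, where 14.1% of all genes were. None of 6 dynein assembly genes was called by limma, the smallest p before adjustment being 0.0502 for Dyx1c1 (log2 fold change -0.25), and voom gave it -0.27.

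Of the 17 other ciliated cell genes tested, Tppp3 included, 7 were lower and none was higher, where 20.8% and 16.1% of all genes tested were. Lrrc23 was at 63.5, 79.6 and 59.3 TPM in control lungs and at 33.9, 40.8 and 35.0 TPM in A3B lungs (log2 fold change -0.86, standard error 0.14, adjusted p = 0.00644, limma). Sntn, which encodes a protein of the ciliary tip, was at 23.4, 20.5 and 17.5 TPM in controls and at 11.45, 11.97 and 13.22 TPM in A3B lungs (log2 fold change -0.69, adjusted p = 0.00891, limma). Pifo (-0.69), Dynlrb2 (-0.55), Mlf1 (-0.51) and 1110017D15Rik (-0.47) were also lower. All 7 called genes of this list have exon lengths between 556 and 1848 bp, inside the shortest quartile, where 35.7% of all genes were called lower. After the adjustment for exon length 2 of the 17 were lower, where 14.1% of all genes were, and the median of the list moved from -0.38 to -0.02.

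Of 16 other club and secretory genes tested, 4 were lower and none was higher, near the 20.8% lower of all genes tested. Scgb1c1, a further secretoglobin, was at 54.5, 57.0 and 60.6 TPM in control lungs and at 28.0, 30.7 and 30.3 TPM in A3B lungs (log2 fold change -0.93, standard error 0.09, adjusted p = 0.00237, limma). Tff2, a trefoil factor of mucous secretions, was at 10.6, 7.54 and 15.5 TPM in controls and at 0.337, 1.51 and 4.34 TPM in A3B lungs (log2 fold change -2.17, standard error 0.54, adjusted p = 0.0265, limma). Lypd2 (-0.91) and Upk3a (-0.77) were lower as well. Upk3a had means of 2.27 TPM in controls and 0.944 TPM in A3B lungs, where the added 1 shrinks the fold change. Voom gave it -1.26 (adjusted p = 0.0358). Without control lung 87 the count of this list was 1, where 16.9% of all genes were lower. Without control lung 91 it was also 1, where 13.3% were. The count was 5 without A3B lung 70, where 12.5% were, and 4 by voom, where 15.5% were. After the adjustment for exon length 2 of the 16 were lower, where 14.1% of all genes were.

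Markers of other cell types, alveolar ones among them, also differed between the lungs. Of 6 markers of alveolar type I cells, the thin cells of gas exchange, 2 were lower, where 20.8% of all genes were (Akap5 at -0.67, adjusted p = 0.00887 and Pdpn at -0.58, adjusted p = 0.0215, limma), and the 6 summed to between 1177 and 1401 scaled exon RPKM in A3B lungs and between 1336 and 1537 in controls. Of 8 markers of alveolar type II cells, which make surfactant, Sftpc was lower by limma (-0.33, adjusted p = 0.0236) and was not called by voom (-0.27, adjusted p = 0.0935). Slc34a2 and Sftpd of this list had positive fold changes that limma did not call (0.37, adjusted p = 0.0619 and 0.32, adjusted p = 0.0648), and voom called Slc34a2 higher (0.44, adjusted p = 0.0340). The sums of the 8 overlapped, between 5227 and 5794 in A3B lungs and between 5337 and 5593 in controls. Of 7 endothelial markers Kdr was lower (-0.70, adjusted p = 0.0433, limma) and Cldn5 higher (0.49, adjusted p = 0.0142, limma). Of the 5 smooth muscle markers Tagln was lower (-0.80, adjusted p = 0.00764, limma), and of the 6 macrophage markers Marco was higher (1.40, adjusted p = 0.00535, limma). Pdgfra, 1 of 5 fibroblast markers (0.76, adjusted p = 0.0119, limma), and Ngp, 1 of 5 neutrophil markers (1.71, adjusted p = 0.0314, limma), were higher too, where 16.1% of all genes were. Of the 5 fibroblast markers 3 had a negative fold change. Col3a1 (-1.32, adjusted p = 0.05002, limma) and Col1a2 (-0.68, adjusted p = 0.105, limma) among them were not called. The fibroblast sums overlapped, between 121 and 184 scaled exon RPKM in A3B lungs and between 120 and 224 in controls. The 5 smooth muscle markers summed to between 172 and 251 scaled exon RPKM in A3B lungs and between 233 and 309 in controls, and the 6 macrophage markers to between 632 and 804 in A3B lungs and between 264 and 566 in controls. The 3 B cell markers with recovered reads summed to between 19.6 and 50.4 in A3B lungs and between 31.1 and 149 in controls, and 1 more was at 0 in every lung. The 6 hepatocyte markers ranged from 19.9 to 1391 over the controls and from 41.5 to 1152 over the A3B lungs. Apart from the genes stated, no marker in these lists was at 0 in a lung. Of the 6 general epithelial markers none was called by limma, with unadjusted p of 0.178 or more. The part of these shifts in the airway results was not tested.

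**Figure D5:**
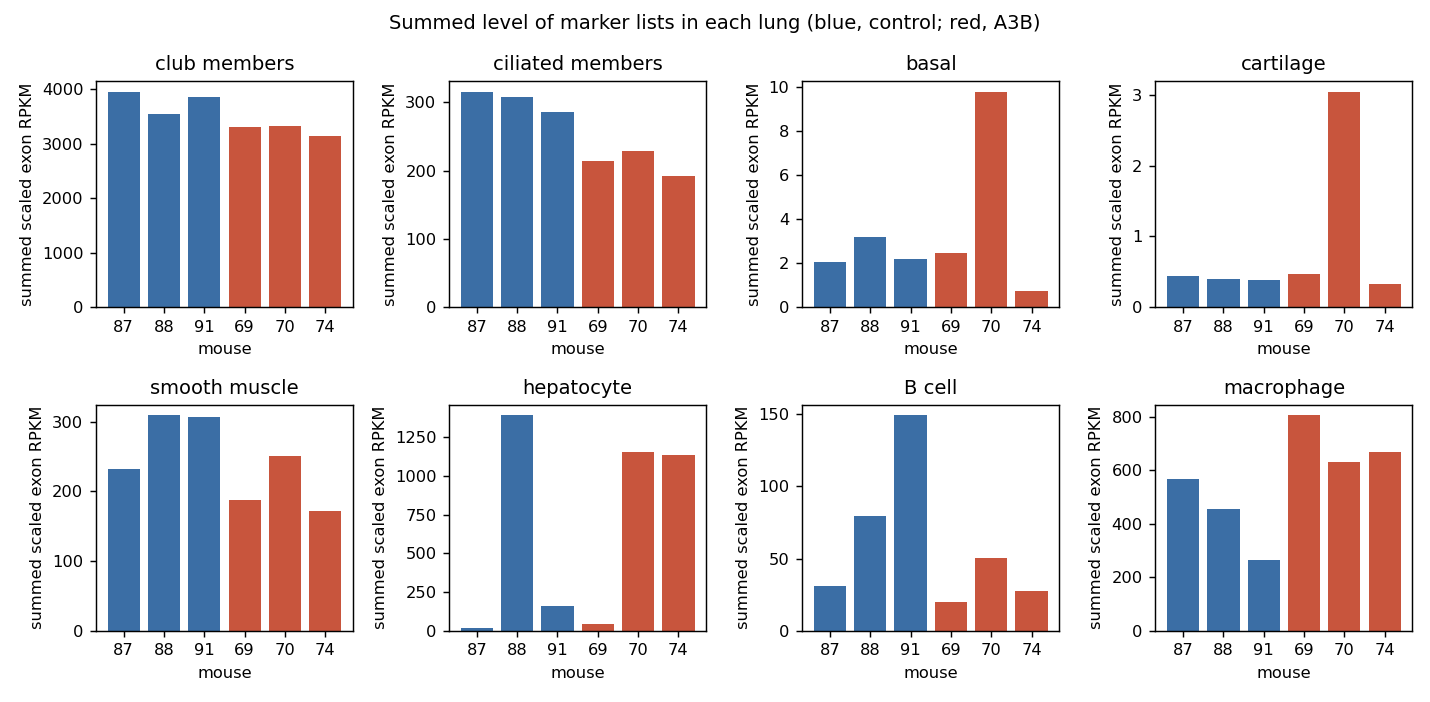
Summed exon RPKM after median-of-ratios scaling (vertical axes) of the club and ciliated members and of 6 marker lists in each lung (axes start at 0), blue for control and red for A3B, by mouse number. A3B lung 70 stands apart for basal (9.78) and cartilage (3.04) markers.

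The effect in lung was set against that in liver by an interaction test over all 12 samples, which came from 10 mice. None of the 8 members tested passed by limma, where 10.7% of all 13477 genes did, and 4 had an unadjusted p under 0.05. None of 10 passed by voom. The difference was -0.70 for Scgb3a2 (standard error 0.21, adjusted p = 0.0539, limma) and -0.65 for Tppp3 (standard error 0.19, adjusted p = 0.0562, limma). Both genes are near 0 in liver, where little change can show on this scale, so these values largely repeat the lung fold changes of -0.70 and -0.70 and do not show that the tissues respond differently. With the mouse as a block, added after seeing the data, both passed (-0.65, adjusted p = 0.0285 and -0.60, adjusted p = 0.0332, limma), where 19.3% of all genes did. That fit used a correlation of 0.543 that rests on the 2 mice that gave both tissues. On recovered reads, where the few liver reads weigh on the ratio, it was -0.20 and 0.50 with adjusted p of 0.877 and 0.605 by voom. In liver alone Scgb1a1 was the only member that passed the filter, and it was not called (adjusted p = 0.701, limma), where 7.93% of all 11507 genes were.

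The likeness of other genes to the members was described over the 6 lungs by Pearson's r on log2(TPM + 1). Outside all lists, the 5 genes most like the mean of the ciliated members were Mdh1b (0.989), Faf1 (0.985), Ccdc33 (0.985), Fam20c (0.984) and Bcam (0.983). Ccdc33, for example, was at 8.96, 11.2 and 5.73 TPM in control lungs and at 6.18, 7.73 and 5.52 TPM in A3B lungs. The 5 most like the mean of the club members were Rnf112 (0.995), Sdhc (0.994), Lgals1 (0.993), N6amt1 (0.987) and Slc26a10 (0.985). The lungs share their libraries and length trend in all these values. The order rests on single lungs, since at most 1 of the first 5 and 3 of the second 5 stayed among the leading 5 when a lung was left out. All of the first 5, and 4 or 5 of the second 5, stayed among the leading 100.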

How the data were processed

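RNA of lung and liver was sequenced with a stranded kit, and the authors deposited TPM per gene (mm10) for the 12 samples used here, 6 lungs and 6 livers. The methods of the study name GenomicAlignments and GenomicFeatures for the read-count matrix behind TPM, STAR for alignment when RNA variants were called and kallisto for differential expression. The column names of the table are those of alignment files with duplicates removed. Which aligner fed the matrix, and whether introns or strand were counted, is not given in the sources used here. The other 16 samples were not used. The members and lists were chosen with earlier results of these data known. From the 24849 rows, 24845 with a unique name were kept, genes averaging 1 TPM or more were tested on log2(TPM + 1) with limma 3.58.1 (trend, robust) in R 4.3.3, and p-values were adjusted by Benjamini-Hochberg over all genes tested (threshold 0.05). Named genes were all members, and in each list the 3 with the smallest lung p and those past the threshold. Values called whole reads lay within 0.01 of a whole number for 99.9% of 18367 genes tried, and 99.98% of the resulting divisors were whole. Reads were tested with limma's voom after median-of-ratios scaling, with a mean of at least 10 reads. The fit was tested on simulated data. Alternatives were another pseudocount, other filters, scalings and limma settings, leaving out each sample and, for the interaction, the mouse as a block.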

Additional observations from a re-analysis of the deposited data

Results flagged for a closer look

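Of the 34 named member and list genes, 5 passed the interaction test over 12 samples (limma, adjusted over all genes tested), where 10.7% of all genes tested did and 8.81% with a negative difference. That negative share was 3.07% with median-of-ratios size factors and 1.57% by voom, below the 3.92% and 2.22% with a positive difference. Many of the 34 genes were named for a small p in lung. In each of the 5 that passed, the A3B effect on the log2(TPM + 1) scale was more negative in lung than in liver, where none of these genes exceeded 0.452 TPM in any sample. Genes so low in liver can show little change there on this scale, so the difference largely repeats the lung fold change (-0.88 for Mcidas and -0.69 for Sntn in lung alone) and does not show that the tissues respond differently. The difference was -0.88 for Mcidas (standard error 0.17, adjusted p = 0.0123), which is listed at 0 in all 6 livers. It was -0.85 for Lrrc23 (standard error 0.23, adjusted p = 0.0388) and -0.69 for Pifo (standard error 0.16, adjusted p = 0.023). It was -0.69 for Sntn (standard error 0.20, adjusted p = 0.0494), also listed at 0 in all livers, and -0.74 for Scgb1c1 (standard error 0.21, adjusted p = 0.0495).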

How the results depend on the processing

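Scgb3a2 and Tppp3 were lower in A3B lungs under every planned setting and without each lung (adjusted p up to 0.0228 and 0.019 without a lung, limma). The adjustment for exon length, added after seeing the data, left 1 member called in lung (Tppp3) and turned Scgb1a1 to 0.33 and Foxj1 to 0.081. Dnah5 turned to 0.025 with median-of-ratios size factors, 0.026 with quantile normalization and 0.039 by voom, also added afterwards. Median-of-ratios scaling moved the level of Scgb1a1 in A3B lungs to 8267 TPM, and the calls over all genes in lung from 16.1% higher and 20.8% lower to 19% and 16.7%. In the interaction 2 members (Scgb3a2 and Tppp3) passed with no filter, where 9.4% of all genes did. With limma without trend and robust variances 2 passed, where 11% of all genes did, whereas voom turned Tppp3 to 0.50 and Rsph1 to 0.39. Against liver, 5 members were left to call at a mean of at least 5 TPM.

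Without each lung in turn, between 2998 and 4579 genes were called in lung, the former without A3B lung 69, with 3288 without control lung 91 and 3087 without A3B lung 70. Between 9 and 15 cilium list genes were lower, 9 without A3B lung 69, where 11.3% of all genes were, and 15 without control lung 91, where 13.3% were. Foxj1 ranged from -0.33 to 0.073 and Dnah5 from -0.22 to 0.12. Of the 5 genes most like the ciliated members 0 to 1 stayed among the leading 5, and of those most like the club members 0 to 3. In liver 54 genes were called with no filter and 416 by voom, and between 1 and 1562 without a liver, 1 without control liver 91 and 9 without control liver 92. There Scgb1a1 ranged from -1.20 to 0.48. In the interaction the calls were 942 with size factors, 841 with quantile normalization and 618 by voom. Without a sample they lay between 571 and 3072 (4.21% and 22.7% of all genes tested). Members called then lay between 0 and 2, Scgb1a1 between -0.66 and 1.02 and Dnah5 between -0.016 and 0.030. The causes were not tested. In liver no member reached a mean of 5 TPM, so that filter left none to test.

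No paired analysis was possible for the lung or the liver comparison because their groups share no mouse number, and control lungs and control livers share only mouse 91. In the interaction, mice 70 and 91 gave both tissues, and the replicate block by mouse gave 2607 genes called, 19.3% of all genes tested. It gave 2 members called (Scgb3a2 at -0.65 and Tppp3 at -0.60), with a correlation of 0.543 estimated from these 2 mice. With 3 lungs against 3, the spread between animals limits the results, and each member had at least 608 reads in every lung.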
